A study of Rattus norvegicus with 8 samples.

Results

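The genes described here are 8 protein-coding genes of the rat mitochondrial genome, taken by identifier from a table of 32883 genes. They are Mt-nd1 (ENSRNOG00000030644), Mt-nd2 (ENSRNOG00000031033), Mt-nd4 (ENSRNOG00000029707) and Mt-nd5 (ENSRNOG00000029971) of complex I, Mt-cyb (ENSRNOG00000031766) of complex III, Mt-co1 (ENSRNOG00000034234) and Mt-co2 (ENSRNOG00000030371) of complex IV, and Mt-atp6 (ENSRNOG00000031979) of the ATP synthase, complex V. The selection rule named identifiers and symbols and set no cut on measured values, but it was chosen with earlier results of these data known. All 8 were found and passed the filter on low counts. The table itself holds identifiers without symbols, so the pairing of name and identifier rests on that rule.

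RNA came from lower spinal cord of rats of the outbred Sprague Dawley strain. The uninjured group had 4 libraries without spinal cord injury. The injured group had 4 libraries taken 4 days after a hemisection, a cut through one side of the cord, at thoracic level 9. The sources used here do not give whether uninjured animals had a sham operation, which side was sampled, or the animals' age and sex. CEL-Seq2 libraries are primed from the poly(A) tail, and a short random identifier on each captured molecule lets amplified copies be counted once.

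The mitochondrial genome encodes a small set of core subunits of complexes I, III, IV and V, whereas complex II and all other subunits come from nuclear genes. Mitochondrial genes are transcribed as long precursors that are cut apart, mostly at the tRNAs between them, and most of the resulting mRNAs receive short poly(A) tails, so that oligo-dT priming captures them. Neurons of the spinal cord depend heavily on the respiratory chain for the ATP that maintains their ion gradients.

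The deepest library held 405537 molecules, and the libraries numbered 3 were the shallowest of their group, uninjured replicate 3 with 119808 molecules and injured replicate 3 with 153060. The highest count of any gene in a library lay between 3989 and 4080. Published CEL-Seq2 uses identifiers of 6 bases, and a gene cannot be counted more often than there are different identifiers. Of 6 genes in the whole table that reached 3500 molecules, which is 85.4% of all 6-base identifiers, in at least 1 library, 4 were among the 8 mitochondrial genes described here.

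A cut at 3500 molecules parted the 8 genes into 2 sets, although Mt-nd2 lay just under it. Mt-nd1, Mt-nd4, Mt-cyb and Mt-atp6 reached 3500 molecules in 7, 5, 6 and 6 of 8 libraries, and their counts carry little information on level. Mt-nd2 reached at most 3497, Mt-co2 3141, Mt-co1 2255 and Mt-nd5 2237 molecules. In all, 24 of 64 values were at 3500 or more, 11 of 32 in uninjured and 13 of 32 in injured libraries.

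Counts near the ceiling hardly followed depth. The deepest library, uninjured replicate 4, held 3.38 times the molecules of the shallowest, uninjured replicate 3. Its count was 1.16 times as high for Mt-nd1, 1.26 times for Mt-nd4, 1.34 times for Mt-atp6 and 1.38 times for Mt-cyb. The genes that stayed under 3500 molecules followed depth more closely, with ratios of 1.58 for Mt-nd2, 1.98 for Mt-nd5, 2.01 for Mt-co1 and 2.64 for Mt-co2. A correction for identifiers used more than once, which assumes that all identifiers are equally likely, was therefore run beside the deposited counts. It multiplied counts of Mt-nd1 by between 2.24 and 5.45 and counts of Mt-nd5 by between 1.10 and 1.45. After it, the ratio of deepest to shallowest library ran from 2.22 (Mt-nd1) to 4.24 (Mt-co2), with 2.27 for Mt-nd5 and 2.47 for Mt-co1. Mt-co2 had the highest ratio before and after correction, although its counts came nearer to the ceiling than those of Mt-nd5 and Mt-co1. Corrected counts are estimates, and their errors below cover only the random draw of identifiers.

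**Figure D1:**
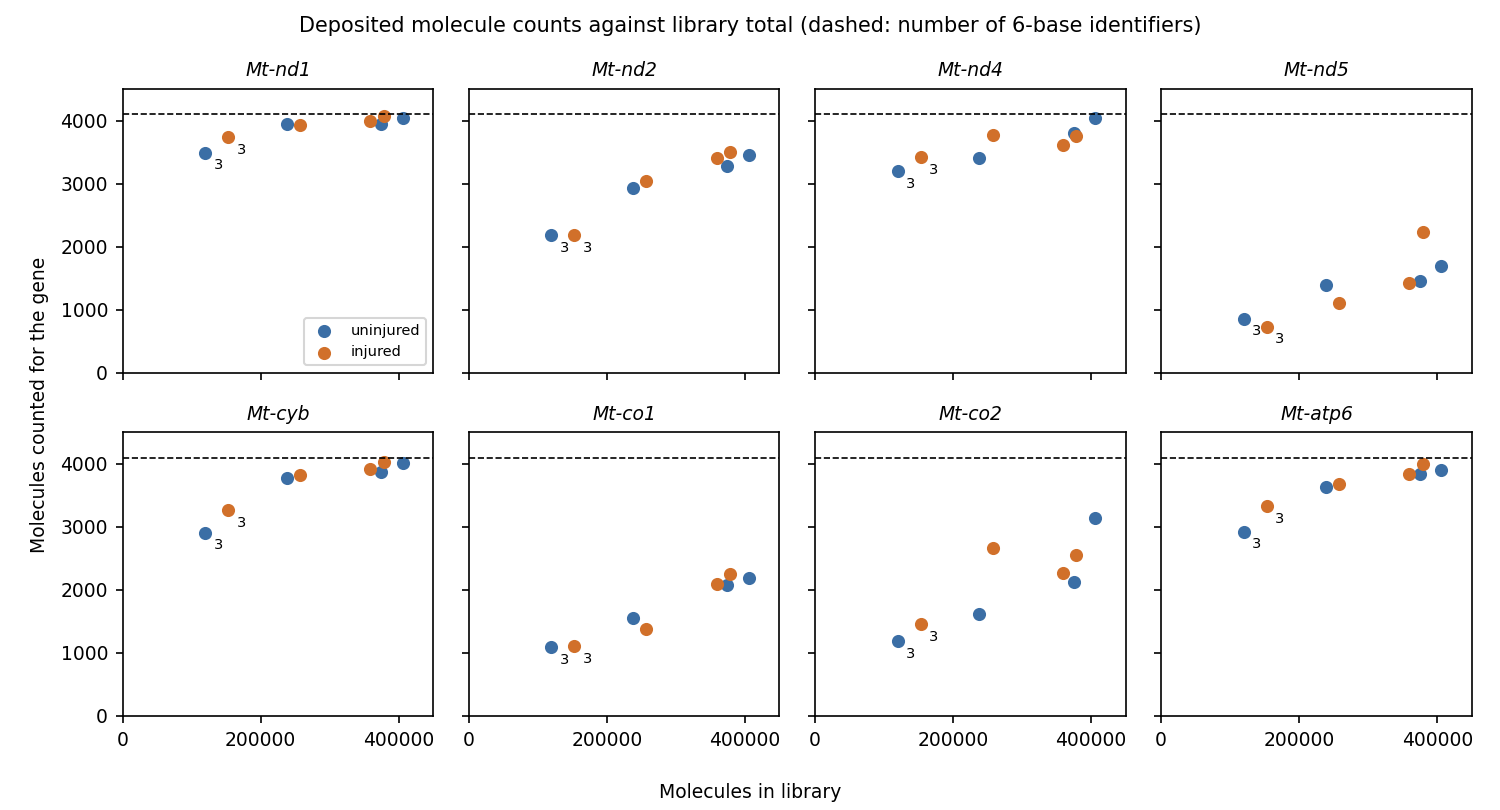
Deposited molecule count of each gene (vertical axis, molecules) against the total of its library (horizontal axis, molecules), with 4 uninjured (blue) and 4 injured (orange) libraries, those numbered 3 marked. The dashed line is the number of different 6-base identifiers; Mt-nd1 lies between 3491 and 4078 molecules close below it, whereas Mt-nd5 lies between 730 and 2237.

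None of the 8 genes was called as different between injured and uninjured cord by edgeR's quasi-likelihood test across all genes (Benjamini-Hochberg adjusted p between 0.991 and 0.999, unadjusted p between 0.505 and 0.842), where 0.986% of 4159 tested genes were called. Fitted log2 fold changes, injured minus uninjured, ran from -0.23 to 0.07 with a median of -0.18, with 7 negative and 1 positive. Over all tested genes the median was -0.01, with the middle of the distribution between -0.23 and 0.21. CPM, molecule counts divided by the scaled size of the library (in units of 1e6 molecules), overlapped between the groups for all 8 genes, where 4.86% of tested genes had groups that did not overlap. A missed threshold does not show equal levels. For the 4 genes that stayed under 3500 molecules, the widest 95% intervals reached a fall of 2.04-fold (Mt-nd2) and a rise of 1.78-fold (Mt-co2). Mt-nd2 and Mt-co2 came as high as 3497 and 3141 molecules, so the ceiling limits these intervals as well, to a lesser degree. The correction multiplied counts of Mt-nd2 by between 1.43 and 2.25, and those of Mt-co2 by between 1.18 and 1.90. For Mt-nd1, Mt-nd4, Mt-cyb and Mt-atp6, an interval from deposited counts does not bound the change in level, since counts near the ceiling hardly follow it. These are bulk libraries, in which a change in the number of cells and a change in RNA per cell cannot be told apart.

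With counts corrected for repeated identifiers, the fitted difference was closer to 0 for each gene but Mt-co2. The median log2 fold change of the 8 genes was -0.02, the range was -0.18 to 0.13, and 4 genes were positive and 4 negative. None was called (edgeR adjusted p between 0.988 and 0.998), where 0.992% of 4135 tested genes were called. On the assumption of equally likely identifiers, the widest intervals reached a fall of 2.0-fold for Mt-nd4 and a rise of 1.77-fold for Mt-nd1.

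**Figure D2:**
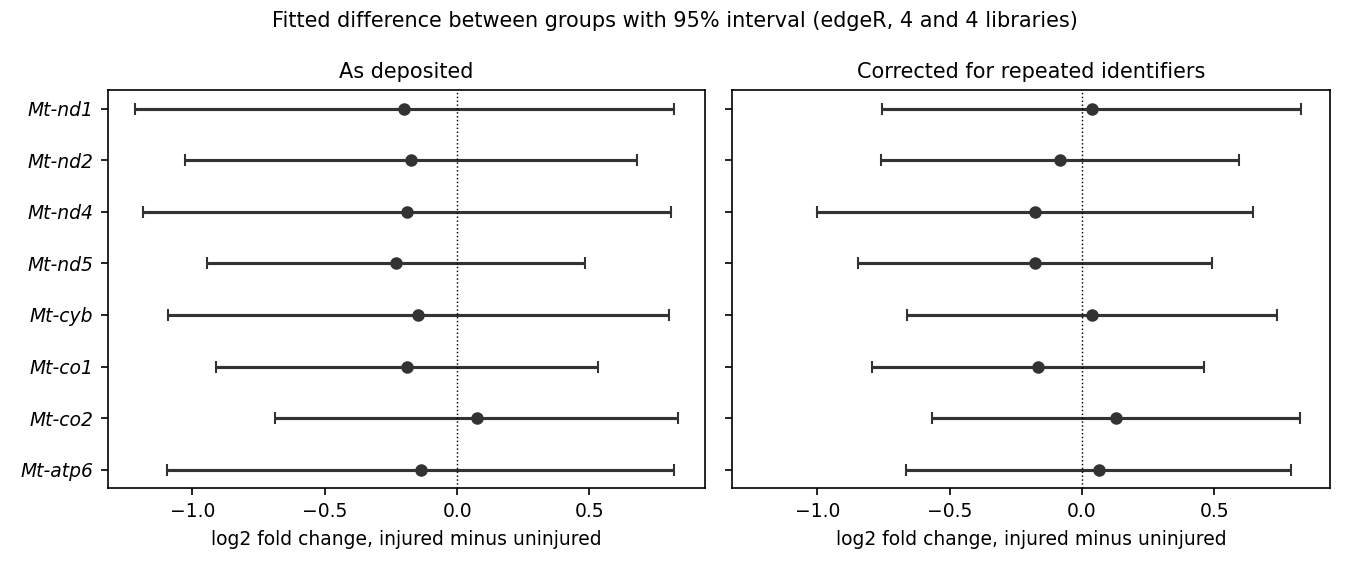
Fitted log2 fold change of each gene, injured minus uninjured (horizontal axis), with its 95% interval, from edgeR on 4 and 4 libraries, for deposited counts (left) and corrected counts (right). All 16 intervals include 0; the deposited interval of Mt-nd5 runs from -0.95 to 0.48.

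Complex I takes electrons from NADH, and Mt-nd1 encodes a subunit of its membrane arm beside the site where ubiquinone enters. Mt-nd1 had 3951, 3948, 3491 and 4037 molecules in the uninjured libraries 1 to 4 and 3999, 4078, 3735 and 3922 in the injured libraries 1 to 4. The groups overlapped, and uninjured replicate 3 was the lowest although its CPM was the highest, 40449 against 9687 to 17393 in the other uninjured libraries. Mean CPM was 19421 ± 14456 in uninjured and 16897 ± 8550 in injured libraries (SD, n = 4 each). The log2 fold change was -0.20 (SE 0.48, edgeR adjusted p = 0.991). Corrected counts of Mt-nd1 were 13685 ± 313, 13601 ± 309, 7834 ± 126 and 17368 ± 513 in uninjured replicates 1 to 4, and 15332 ± 392, 22231 ± 952, 9949 ± 180 and 12938 ± 282 in injured replicates 1 to 4 (± the error of the identifier draw). The log2 fold change on that scale was 0.04 (SE 0.38, edgeR adjusted p = 0.998).

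Mt-nd2 and Mt-nd4 encode 2 of the antiporter-like subunits of the same membrane arm, which pump protons. Mt-nd2 had 3275, 2925, 2179 and 3446 molecules in the uninjured libraries 1 to 4 and 3398, 3497, 2182 and 3033 in the injured libraries 1 to 4. Its lowest values in molecules were the libraries numbered 3 of both groups, which differed by 3 molecules. In CPM these libraries were the highest of each group, with 25247 in uninjured and 17002 in injured replicate 3. The log2 fold change of Mt-nd2 was -0.17 (SE 0.41, edgeR adjusted p = 0.991), and the fold had a 95% interval from 0.491 to 1.60. With corrected counts the log2 fold change was -0.08 (SE 0.32, edgeR adjusted p = 0.994). Mt-nd4 had 3794, 3402, 3195 and 4032 molecules in the uninjured libraries 1 to 4 and 3619, 3751, 3417 and 3775 in the injured libraries 1 to 4. The injured values lay inside the uninjured range. Its log2 fold change was -0.19 (SE 0.47, edgeR adjusted p = 0.991), with corrected counts -0.18 (SE 0.39, edgeR adjusted p = 0.988). Mt-nd4 shares a processed transcript with Mt-nd4l, which overlaps it, and the sources used here do not say how the counting divided reads between them.

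Mt-nd5 encodes the antiporter-like subunit at the far end of the membrane arm. It had 1455, 1385, 856 and 1692 molecules in the uninjured libraries 1 to 4 and 1425, 2237, 730 and 1099 in the injured libraries 1 to 4. In molecules, injured replicate 2 was the highest of all 8 libraries, and injured replicate 3 the lowest. In CPM, uninjured replicate 3 was the highest with 9918, and uninjured replicate 1 the lowest with 3739. Mean CPM was 5955 ± 2842 in uninjured and 5059 ± 945 in injured libraries (SD, n = 4 each). The log2 fold change was -0.23 (SE 0.34, edgeR adjusted p = 0.991), the most negative of the 8 genes, and the fold had a 95% interval from 0.519 to 1.4. Its counts reached at most 54.6% of the identifiers, in injured replicate 2, and the correction multiplied them by between 1.10 and 1.45. Its corrected log2 fold change was -0.18 (SE 0.32, edgeR adjusted p = 0.988). Mt-nd6 lies on the opposite strand beside Mt-nd5, and the sources used here do not say whether counting used the strand.

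Mt-cyb encodes cytochrome b, the subunit of complex III that carries both quinone sites. It had 3869, 3782, 2908 and 4014 molecules in the uninjured libraries 1 to 4 and 3923, 4034, 3260 and 3822 in the injured libraries 1 to 4. The injured values overlapped the uninjured ones. The libraries numbered 3 were the lowest of each group in molecules and the highest in CPM. Mean CPM was 17483 ± 11284 in uninjured and 15784 ± 6883 in injured libraries (SD, n = 4 each), with a log2 fold change of -0.15 (SE 0.45, edgeR adjusted p = 0.991). With corrected counts it was 0.04 (SE 0.33, edgeR adjusted p = 0.998). Corrected CPM was 34374 ± 9634 in uninjured and 35297 ± 5162 in injured libraries (SD, n = 4 each).

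Complex IV passes electrons to oxygen. Mt-co1 encodes its catalytic subunit, which binds the heme groups where oxygen is reduced. Mt-co1 had 2074, 1549, 1088 and 2184 molecules in the uninjured libraries 1 to 4 and 2093, 2255, 1107 and 1383 in the injured libraries 1 to 4. The libraries numbered 3 were again the lowest of each group in molecules. In CPM they were the highest, with 12606 in uninjured replicate 3 and 8625 in injured replicate 3, against 5240 to 6824 in the other 6 libraries. The log2 fold change was -0.19 (SE 0.34, edgeR adjusted p = 0.991), and the fold had a 95% interval from 0.532 to 1.45.

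Mt-co2 encodes the subunit that receives electrons from cytochrome c. It had 2118, 1624, 1190 and 3141 molecules in the uninjured libraries 1 to 4 and 2269, 2551, 1453 and 2664 in the injured libraries 1 to 4. In molecules, both libraries numbered 4 were above the other 3 of their group. In CPM, the libraries numbered 3 were the highest of each group, with 13788 in uninjured and 11321 in injured replicate 3. Injured replicate 4 was close to the latter, with 11235. In corrected CPM, injured replicate 4 was the highest injured library, 14293 against 11063 in injured replicate 3. Uninjured replicate 3 stayed the highest of its group, with 12910. Mt-co2 was the gene with a positive log2 fold change in the deposited counts, 0.07 (SE 0.36, edgeR adjusted p = 0.999), and its corrected value was 0.13 (SE 0.33, edgeR adjusted p = 0.988). The fold had a 95% interval from 0.621 to 1.78 in deposited counts. Mean CPM was 8481 ± 3654 in uninjured and 8910 ± 2744 in injured libraries (SD, n = 4 each).

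Mt-atp6 encodes subunit a of the ATP synthase, which forms the path of protons along the rotor. It had 3841, 3627, 2926 and 3908 molecules in the uninjured libraries 1 to 4 and 3842, 3998, 3332 and 3680 in the injured libraries 1 to 4. Replicate 1 of both groups differed by 1 molecule, and the groups overlapped. The log2 fold change was -0.14 (SE 0.46, edgeR adjusted p = 0.991), and with corrected counts 0.06 (SE 0.35, edgeR adjusted p = 0.998). Mt-atp6 overlaps Mt-atp8 on a shared transcript, with the same limit as for Mt-nd4. Nuclear copies of mitochondrial sequence can also take or lose reads of any of the 8 genes.

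The summed share of the 8 genes, which are a part of the mitochondrial genes, in deposited molecules was 9.31% ± 3.95 in uninjured and 8.86% ± 2.67 in injured libraries (SD, n = 4 each). In uninjured replicates 1 to 4 it was 6.51%, 9.34%, 14.9% and 6.52%, and in injured replicates 1 to 4 it was 6.85%, 6.97%, 12.6% and 9.08%. The shares ordered the libraries nearly by depth, with the largest in the shallowest library, where the exact 95% binomial interval was 14.7% to 15.1%. That interval covers neither the spread among libraries nor the loss of counts at the ceiling, and the corrected share of that library, 19.7%, lies outside it. After correction, the share was 16.7% ± 2.48 in uninjured and 17.2% ± 2.03 in injured libraries (SD, n = 4 each). It was 13.8%, 17.5%, 19.7% and 15.8% in uninjured replicates 1 to 4, and 14.8%, 17.3%, 19.8% and 17.0% in the injured libraries 1 to 4. Dividing the injured by the uninjured share gave 1.07, 0.990, 1.01 and 1.08 for numbers 1 to 4 after correction, against 1.05, 0.747, 0.843 and 1.39 before it. The ratio moved closer to 1 for numbers 2, 3 and 4 and slightly away from it for number 1. These corrected shares rest largely on estimates from counts near the ceiling. On average, Mt-nd1, Mt-nd4, Mt-cyb and Mt-atp6 took 23.8%, 18.1%, 18.9% and 16.9% of the corrected sum in uninjured libraries. In injured libraries they took 25.01%, 16.0%, 19.5% and 17.8%.

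**Figure D3:**
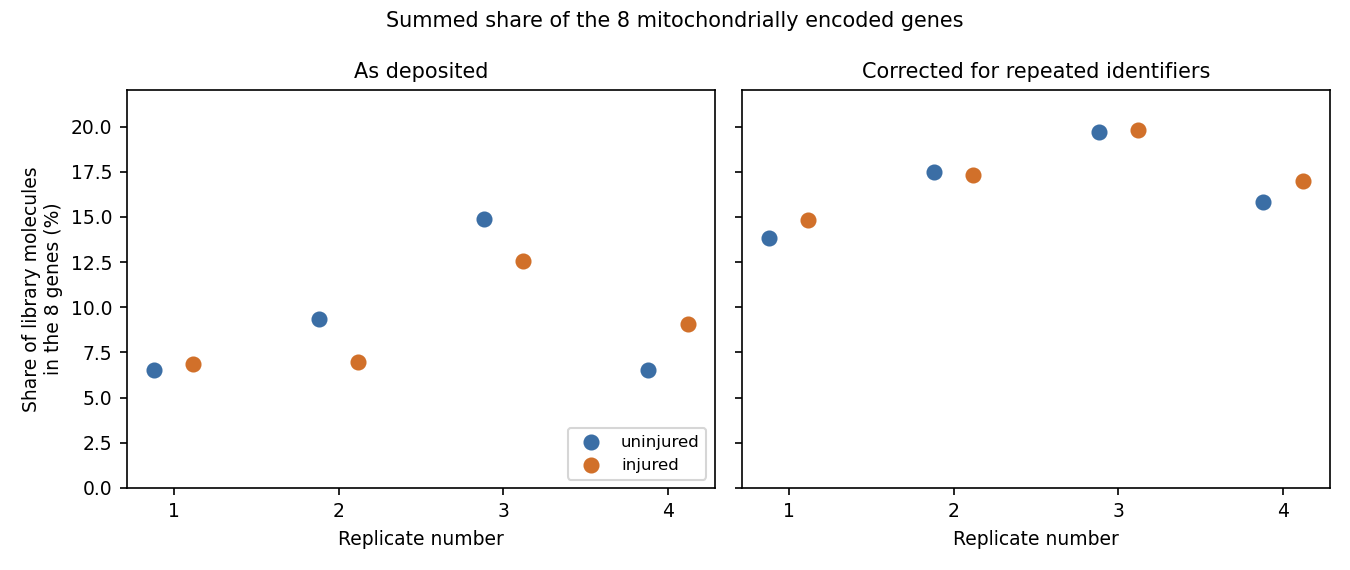
Summed share of library molecules in the 8 genes (vertical axis, %), by replicate number (horizontal axis), for uninjured (blue) and injured (orange) libraries, as deposited (left) and corrected for repeated identifiers (right). Deposited shares run from 6.51% to 14.9%; corrected shares run from 13.8% to 19.8% and lie closer within numbers 2, 3 and 4, but not within number 1.

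By complex, mean corrected shares also lay close between groups, but outside complex IV they rest largely on estimates from counts near the ceiling. The 4 genes of complex I held 9.21% ± 1.76 in uninjured and 9.24% ± 1.42 in injured libraries (SD, n = 4 each). Mt-cyb held 3.14% ± 0.389 and 3.33% ± 0.232, both complex IV genes together 1.53% ± 0.223 and 1.60% ± 0.153, and Mt-atp6 2.82% ± 0.393 and 3.06% ± 0.427, in uninjured and injured libraries respectively (SD, n = 4 each). Each of these ranges overlapped between the groups. The 4 complex I genes are separate transcripts of 1 genome and no replicates of each other.

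The makeup within the 8 genes, estimated in large part from counts near the ceiling, varied by library as well. As a part of the corrected sum, Mt-nd4 took 18.1% ± 2.98 in uninjured and 16.0% ± 3.54 in injured libraries (SD, n = 4 each), the widest gap between group means of the 8 genes. Mt-nd1 took 23.8% ± 2.56 and 25.01% ± 1.86, and Mt-co2 took 5.17% ± 1.44 and 5.59% ± 1.36. The gap was smaller than the larger SD for each of the 8 genes, and all ranges overlapped.

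Within replicate numbers, the direction of the CPM difference was shared by all 8 genes and differed between numbers. All 8 were higher in the injured library of number 1 (median ratio 1.09) and of number 4 (median 1.60), and all 8 were lower in the injured library of number 2 (median 0.697) and of number 3 (median 0.719). In numbers 1 and 4 the injured library was the shallower of its pair, with 0.958 and 0.635 times the molecules of the uninjured one. In numbers 2 and 3 it was the deeper, with 1.59 and 1.28 times the molecules. After correction the median ratios were 1.13, 1.01, 0.825 and 1.23 for numbers 1 to 4, and 7, 4, 0 and 7 of 8 genes were higher in the injured library.

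**Figure D4:**
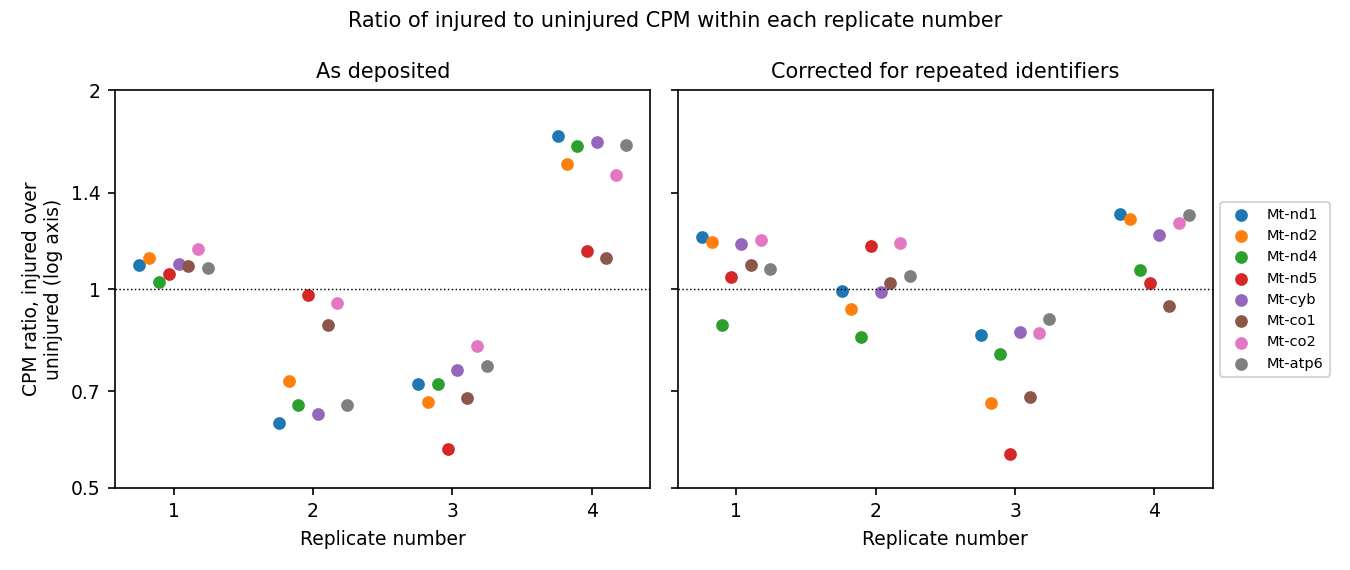
Ratio of injured to uninjured CPM of each gene (vertical axis, log scale) for each replicate number (horizontal axis), as deposited (left) and corrected for repeated identifiers (right); each colour is 1 gene and the dotted line is a ratio of 1. As deposited, all 8 genes lie above 1 for numbers 1 and 4 and below 1 for numbers 2 and 3, with medians of 1.09, 1.60, 0.697 and 0.719 in that order.

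Number 3 had the lowest corrected CPM ratio of the 4 numbers for each of the 8 genes, from 0.562 for Mt-nd5 to 0.900 for Mt-atp6, while the summed corrected shares of its libraries were 19.7% and 19.8%. Before correction number 2 was lower than number 3 for Mt-nd1, Mt-nd4, Mt-cyb and Mt-atp6. CPM differs from a share by the scaling factor of the library (TMM, which sets the bulk of genes level), and for corrected counts this factor was 0.724 in uninjured replicate 3 and 0.897 in injured replicate 3, against 0.960 to 1.19 in the other libraries. For deposited counts it was 0.764 and 0.893, against 0.993 to 1.12. In deposited CPM the libraries numbered 3 were the highest pair for 7 of 8 genes. The exception was Mt-nd5, whose second highest CPM was uninjured replicate 2. With corrected counts they were the highest pair for 6 of 8. The shallowest library exceeded the deepest in CPM by between 1.83-fold (Mt-co2) and 4.18-fold (Mt-nd1) as deposited, and by between 1.14-fold (Mt-co2) and 2.18-fold (Mt-nd1) after correction. The part of depth in these values beyond the ceiling was not tested.

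Uninjured replicate 3 set the sign of most fitted differences. Without it, log2 fold changes of all 8 genes were positive, from 0.12 for Mt-nd5 to 0.44 for Mt-nd4. None of the 8 was called (lowest edgeR adjusted p = 0.756), where 77 of all genes tested without this library were called. Without both libraries numbered 3, they were positive as well, from 0.02 for Mt-co1 to 0.09 for Mt-nd2 in 7 genes, and 0.27 for Mt-co2 (SE 0.27, edgeR adjusted p = 0.839). Without injured replicate 3 alone, all 8 were negative, down to -0.60 for Mt-nd1. With the replicate number as a block, a pairing taken from these same data, the median was -0.06. The SEs narrowed from between 0.34 and 0.48 to between 0.22 and 0.28. With this block none of the 8 genes was called, where 2.64% of tested genes were called. With the block and the correction together, 95% intervals reached from -0.59 (Mt-nd4) to 0.55 (Mt-co2) on the log2 scale. Because the pairing was taken from these same data, intervals with the block may be too narrow.

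Spread within groups was large for the genes at the ceiling. The SD of log2 CPM within groups was 0.83 for Mt-nd1, 0.80 for Mt-nd4, 0.74 for Mt-atp6 and 0.73 for Mt-cyb. It was 0.61 for Mt-nd2, 0.51 for Mt-co2, 0.50 for Mt-nd5 and 0.46 for Mt-co1. The median was 0.38 for the 100 most abundant other genes and 0.41 for all tested genes. After correction the 8 genes ranged from 0.33 for Mt-cyb to 0.60 for Mt-nd4, with a median of 0.44 beside 0.41 for all tested genes.

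The 8 genes moved together across libraries. Pearson's r of log2 CPM between members ranged from 0.68 to 0.9997 over 28 gene pairs and 8 libraries, with a median of 0.94. All pairs share the same libraries, depths and ceiling, and the value is a description. The other genes most like the mean of the 8 were ENSRNOG00000043866 (r = 0.995 over 8 libraries) and ENSRNOG00000029886 (r = 0.987 over 8 libraries). ENSRNOG00000043866 had 3978 to 4080 molecules and ENSRNOG00000029886 had 2859 to 4051, so both also met the ceiling, and the libraries numbered 3 had the highest CPM of both. Their log2 fold changes were -0.27 and -0.30 (edgeR adjusted p = 0.991 each). No table used here pairs these identifiers with a symbol.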

How the data were processed

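The authors deposited raw counts of molecules per gene, with no normalization. Per the submitters' processing notes, tools included HTSeq 0.6.0 and HISAT2 2.0.4, with build Rnor_6.0. The sources used here do not give the identifiers' length or the strand setting. Each of the 8 columns matched 1 sample title.

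Genes passing filterByExpr (minimum count 10, minimum total 15) were fitted with edgeR 4.0.16 in R 4.3.3, using TMM factors, the robust quasi-likelihood F test, two-sided, and Benjamini-Hochberg adjustment at 0.05 over 4159 genes. Standard errors are the absolute log2 fold change over the root of F. CPM used the molecules of tested genes times the TMM factor, and log2 CPM a prior count of 3. The correction took n = -K ln(1 - k/K) for a count k, with K = 4096, the number of 6-base identifiers. After it, 4135 genes passed the filter. DESeq2 1.42.0, limma 3.58.1 (voom), other scalings and filters and single libraries left out were alternatives. The fitting was tested on simulated counts without a ceiling, and the correction on simulated draws of equally likely identifiers. Neither test can speak to fits of counts near the ceiling or to unequal use of identifiers.

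Same-numbered libraries tended to deviate from their group means together (correlations across genes from 0.17 to 0.45, for different numbers from -0.39 to 0.24). These ranges overlap. Number 3 had 0.17, against 0.16 for uninjured replicate 3 with injured replicate 4 and 0.24 for uninjured replicate 1 with injured replicate 2. The numbers were taken as pairs on these same data, which is weakly grounded for number 3, and the labels do not say what the numbers mean. No columns were identical. Separate animals are not stated, so p-values reflect spread among libraries that may be technical.

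The members, the lists and the rules were chosen with earlier results of these data known. All 8 members were named, with the 2 other genes of highest Pearson's r to their mean log2 CPM. Lists of other respiratory chain and biogenesis genes and of cell type markers were not used here: the reference table had an Ensembl identifier for 0 of 47357 genes, so tissue identity was not checked against markers.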

Additional observations from a re-analysis of the deposited data

Results flagged for a closer look

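Of 36 sets of 4 values examined for a single library far from the others, 2 stood out, where chance flags about 1 in 20. The CPM of Mt-co1 was 8625 in injured replicate 3, against 5783 to 6025 in the other injured libraries. The corrected CPM of Mt-co1 was 11615 in uninjured replicate 3, against 5825 to 6765 in the other uninjured libraries. Both are the shallowest library of their group.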

How the results depend on the processing

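None of the 8 genes was called in any of 36 alternatives, with a lowest adjusted p of 0.756 and a lowest unadjusted p of 0.17. Of 288 fitted values under alternatives, 65 had the other sign than the deposited counts of all 8 libraries. With corrected counts, log2 fold changes turned positive for Mt-nd1 (0.036), Mt-cyb (0.038) and Mt-atp6 (0.062). With corrected counts and library sizes from genes under 2000 molecules they were 0.032, 0.030 and 0.056, and with corrected counts and the replicate block 0.10, 0.069 and 0.097. Without both libraries numbered 3 they were 0.050 for Mt-nd1, 0.094 for Mt-nd2, 0.065 for Mt-nd4, 0.069 for Mt-nd5, 0.061 for Mt-cyb, 0.022 for Mt-co1 and 0.066 for Mt-atp6. With corrected counts in addition they were 0.19 for Mt-nd1, 0.16 for Mt-nd2, 0.13 for Mt-nd5, 0.16 for Mt-cyb, 0.029 for Mt-co1 and 0.18 for Mt-atp6. Mt-nd4 stayed negative there, at -0.071. In numbers 1 and 2 alone Mt-nd5 was at 0.019 with deposited counts, where 6 of 8 genes were negative, down to -0.32 for Mt-nd1. Corrected counts of these numbers gave 0.099 for Mt-nd1, 0.057 for Mt-nd2, 0.16 for Mt-nd5, 0.091 for Mt-cyb, 0.077 for Mt-co1 and 0.084 for Mt-atp6. Mt-nd4 stayed negative, at -0.21. In numbers 3 and 4 alone, corrected counts gave 0.037 for Mt-atp6, where 6 of 8 genes were negative, down to -0.50 for Mt-nd5.

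Leaving out 1 library gave, with deposited counts, -0.60 to 0.44 for Mt-nd1, -0.38 to 0.30 for Mt-nd2, -0.58 to 0.44 for Mt-nd4, -0.40 to 0.12 for Mt-nd5, -0.48 to 0.38 for Mt-cyb, -0.35 to 0.17 for Mt-co1, -0.093 to 0.40 for Mt-co2 and -0.49 to 0.41 for Mt-atp6. With corrected counts it gave -0.14 to 0.37, -0.21 to 0.21, -0.44 to 0.20, -0.37 to 0.13, -0.10 to 0.23, -0.27 to 0.13, -0.074 to 0.33 and -0.090 to 0.34 in the same order. Settings that change the counts or the filter can also change how many genes are tested. The number of called genes was 41 of 4159 tested. It was 98 with no filter on low counts, 110 with the replicate block, 112 with the block and corrected counts, 62 without both libraries numbered 3 (62 with corrected counts), 86 in numbers 1 and 2 alone (83 with corrected counts), 3 in numbers 3 and 4 alone (3 with corrected counts), 72 with the number groups 1 to 2 and 3 to 4 as a term, and 23 to 77 with 1 library left out. The summed share moved from 9.31% to 16.7% in uninjured and from 8.86% to 17.2% in injured libraries with corrected counts. The number of values near the ceiling was 24 at 3500 molecules, 36 at 3000 and 16 at 3800. The combinations of corrected counts with other library sizes, left-out libraries or number groups, and the share without the libraries numbered 3, were chosen after seeing the data. The cause of these moves was not tested. The replicate block changed no call of the 8 genes.

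The ceiling limits what these counts can show. A count of 4078 leaves so few unused identifiers that its corrected value, 22231, carries an error of 952 from the draw alone, and unequal use of identifiers was not tested.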
